A study of Mus musculus with 4 samples.

Results

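Ring1b regions of middle width are described here. They held nearly as much signal or more in cells expressing the K36M form of histone H3.3 as in cells expressing wild-type H3.3. They were chosen by their width and by the very values compared: a width of 1200 to 8000 bp, a summed value of both libraries of at least 3 RPM (reads per 1000000 reads), and a ratio of K36M to wild type, (K36M + 0.1)/(WT + 0.1), of at least 0.95. The rule took 374 of the 6371 regions in the table (5.87%), or 13.2% of the 2824 mid-width regions. Of the mid-width regions, 22 were under the minimum sum, and 5 of those would have met the ratio. The direction of the 374 regions is therefore set by the rule, and their ratios are given as a description with no test.

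Ring1b is the ubiquitin ligase subunit at the core of Polycomb repressive complex 1 (PRC1), which marks histone H2A and compacts chromatin at silent developmental genes. Canonical PRC1 is brought to chromatin by CBX subunits that bind H3K27 methylation, the mark laid down by Polycomb repressive complex 2, and variant PRC1 can be recruited without that mark. Methylation of H3K36 hinders Polycomb repressive complex 2, and the K36M substitution blocks enzymes that methylate H3K36.

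The study profiled Ring1b by chromatin immunoprecipitation and sequencing in C3H10T1/2, a mesenchymal progenitor line from mouse embryos of the C3H strain that can form fat, cartilage, bone and muscle-like cells. Both cell populations were used at passages 10 to 15 and carried a stable FLAG-HA-tagged H3.3 transgene, wild type (WT) in one and K36M in the other, so that the control also carries a tagged histone. The labels do not say whether a population is a clone or a pool, nor what drives the transgene. Of 4 libraries, the Ring1b library of each form was used (1 per form), and the 2 inputs were not analysed here. No value below therefore carries an error between cultures, and the forms could not be compared by a test.

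Coordinates are those of the mouse build mm9, with starts counted from 1. The table names no genes, and the annotation at hand is of another build, so that regions are given by position only, the labelled cell type was not checked against its markers, and no sequence is printed. By its name, the table lists WT peak regions, so that sites bound only in K36M cells are outside it. Each RPM value is a whole number of reads, with a read worth 0.0335 RPM in the WT and 0.0317 RPM in the K36M library. The 374 regions held 56985 WT and 70470 K36M reads, with a median of 144 (42 to 463) and 174 (55 to 588) per region. Every interval beside a ratio is an exact (Clopper-Pearson) 95% interval that covers counting error only; since the reads carry no molecular identifiers, copies of 1 molecule cannot be told from separate ones.

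At most of the 374 regions the counting interval of the ratio included 1, and at a minority it lay above 1. These intervals come from the values the rule used and are not adjusted for the number of regions. In WT the 374 regions stood at a median of 4.82 RPM (quartiles 3.82 and 6.03, lowest 1.41, highest 15.5). In K36M they stood at 5.53 RPM (quartiles 4.31 and 7.19, lowest 1.74, highest 18.6). The median ratio was 1.11, and the highest was 2.22. By the ratio with 0.1 RPM added, 73 regions lay between 0.95 and 1, 204 between 1 and 1.25, 67 between 1.25 and 1.5, and 30 at or above 1.5. Only 6 of these 30 reached 2. The values thus spread over little more than a 2-fold range of ratios, from the threshold upward.

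The counting interval included 1 at 282 of the 374 regions (75.4%) and lay wholly above 1 at 92 (24.6%); at no region did it lie below 1. An interval above 1 was found at 3.06% of all 6371 regions and at 3.28% of the 2802 mid-width regions that reached the minimum sum. Because the rule demands a high ratio, the 92 regions are the same ones that make up this 3.28%, and nothing is read from the difference between the shares. A ratio of at least 1.5 was found at 1.22% of all regions and 1.07% of these mid-width regions, and a ratio of at least 2 at 0.314% and 0.214%. Depth sets how much can be resolved: the upper bound was a median of 1.58 times the lower bound. At the 282 regions neither a gain nor a loss was detected beyond counting error, and "kept", "gained" and a partial loss cannot be told apart there. For example, the interval was 0.667 to 1.44 at chromosome 5, 104630801 to 104632400. Relative to the median region of the whole table, which had a log2 ratio of -0.65, all 374 intervals lay above 1 and 0 included it, so that the counts of 92 and 282 hold for the values as deposited.

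The threshold cuts through a continuous range of values. The 3 members nearest to it were chromosome 18, 55089201 to 55092200 (6.93 RPM in WT and 6.59 in K36M), chromosome 17, 84481801 to 84489000 (11.7 and 11.2 RPM), and chromosome 10, 99370001 to 99377600 (6.06 and 5.77 RPM). Just outside lay chromosome 6, 37568001 to 37569200 (1.64 and 1.55 RPM), chromosome 4, 53450601 to 53453200 (2.24 and 2.12 RPM), and chromosome 2, 14743601 to 14746800 (2.45 and 2.31 RPM). Without the added 0.1 RPM, the ratio was 0.951 or 0.952 in the first 3 and 0.946 in the last 3, each with an interval that includes 1. With it, the last 3 stood at 0.9494, 0.9486 and 0.9484. By the ratio with 0.1 RPM added, 102 mid-width regions of sufficient sum lay between 0.90 and 0.95, the last 3 among them. Another 129 lay between 0.85 and 0.90.

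Per kilobase, the 374 regions were thinly covered in WT and ranked high in K36M. Their median density was 1.10 RPM per kb in WT (quartiles 0.871 and 1.51) and 1.25 RPM per kb in K36M (quartiles 0.984 and 1.81). The other 2450 mid-width regions stood at 1.39 RPM per kb in WT and 0.735 RPM per kb in K36M. Within all mid-width regions, the median member thus lay at the percentile 32.2 of WT density and at the percentile 81.3 of K36M density. The rule uses both values, and a ratio favours low WT and high K36M levels. Background reads were not taken off, and their part in the levels was not tested.

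**Figure D1:**
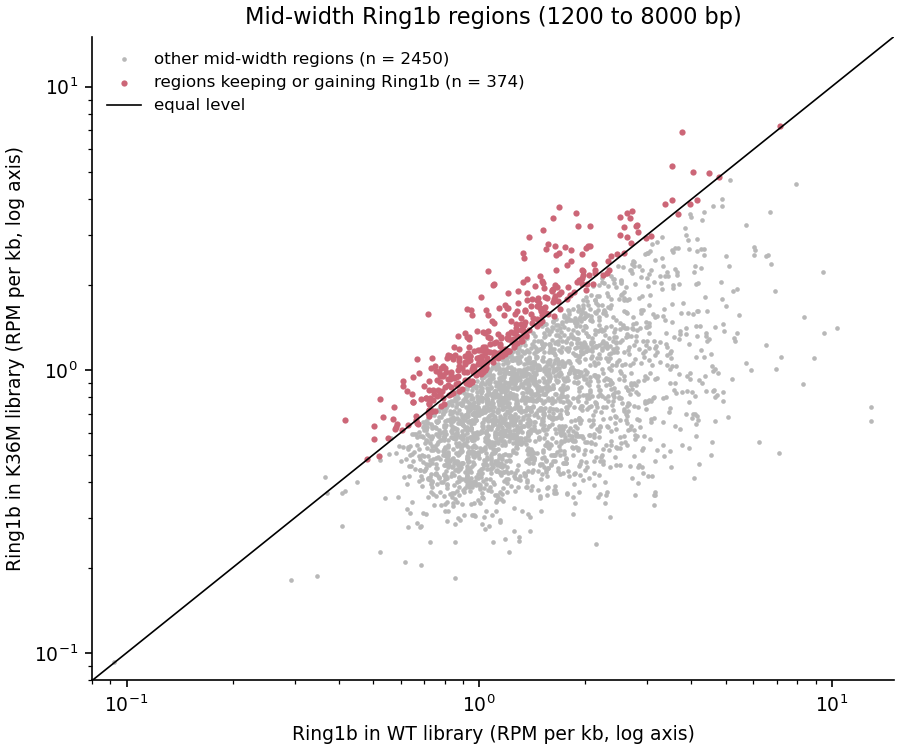
Ring1b density of each mid-width region in the WT library (x axis) and the K36M library (y axis), in RPM per kb on log axes; each point is 1 region and the line marks equal levels. The 374 regions keeping or gaining Ring1b (red) lie along and above the line, and most of the 2450 others (grey) lie below it.

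The share of members by density, in 5 bins of nearly equal size, shows the same dependence. Members made up 22.8% of the mid-width regions in the lowest bin of WT density (up to 0.948 RPM per kb) and 5.49% in the highest bin (from 2.15 RPM per kb). By K36M density the order was the opposite, from 0.354% in the lowest bin to 34.3% in the highest. By the mean density of both libraries the share went from 8.32% to 16.1%, so that members were found at every level. Width did not set them apart strongly: the median was 4400 bp, against 4000 bp in the other mid-width regions, and the share of members was 9.86% among regions of 1200 to 2200 bp and 16.1% among those of 6400 to 8000 bp. Together the members held 11.2% of the WT signal and 21.9% of the K36M signal of all mid-width regions (1909 of 17076 RPM and 2234 of 10188 RPM).

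The 15 regions with the highest ratio held 1.78 to 2.22 times as much Ring1b in K36M as in WT, each with an interval above 1. The choice of the highest ratios favours overstated ratios and intervals above 1, so both are given as a description. First came chromosome 18, 69862401 to 69864800, with 121 WT and 284 K36M reads, or 1.69 and 3.75 RPM per kb (ratio 2.22, interval 1.79 to 2.77). It stood alone: the nearest region in the table was 121 kb away. The second was chromosome X, 163417801 to 163423600, with 0.716 in WT and 1.58 RPM per kb in K36M (ratio 2.21, interval 1.78 to 2.74). Within 50 kb of it lay 2 regions with intervals that include 1. The nearer, itself a member, had a ratio of 1.18 (interval 0.885 to 1.58), and the farther had 0.999 (0.676 to 1.48). Chromosome 6, 17158601 to 17163200, had the most K36M reads of the 15, 499 against 222 in WT (ratio 2.13, interval 1.81 to 2.50), and no region within 50 kb.

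The next 3 of the 15 had ratios of 2.04 to 2.11. At chromosome 3, 107508401 to 107511800, 1.39 RPM per kb in WT stood against 2.94 in K36M (ratio 2.11, interval 1.73 to 2.60). The region at chromosome 11, 109679001 to 109680800, had only 57 WT and 127 K36M reads, and its ratio of 2.11 had the widest interval, 1.53 to 2.93. It touches a 200-bp region of much denser signal, 16.9 (WT) and 21.1 RPM per kb (K36M), with a ratio of 1.25 and an interval (0.955 to 1.63) that holds 1. A further 200-bp region, 0.200 kb away, had a ratio of 1.55 (interval 1.03 to 2.34). At chromosome 18, 61049801 to 61052200, 109 WT reads stood against 235 K36M reads (ratio 2.04, interval 1.62 to 2.58), while a 1200-bp region 5.20 kb away was 1.53-fold lower in K36M (interval 1.14 to 2.05).

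Some of the 15 shared their higher level with an adjoining region. Chromosome 2, 113460801 to 113462200, was the densest of the 15, with 3.76 in WT and 6.91 RPM per kb in K36M (157 and 305 reads, ratio 1.84, interval 1.51 to 2.24). The 400-bp region that touches it was 1.81 times as high in K36M (interval 1.27 to 2.63), whereas a 200-bp region 1.40 kb to its other side was 5.28-fold lower (30 and 6 reads, interval 2.16 to 15.5). Chromosome 10, 85732001 to 85734800, had 1.88 in WT and 3.59 RPM per kb in K36M (ratio 1.91, interval 1.57 to 2.33). A 9600-bp region 0.800 kb away was also higher, with a ratio of 1.32 (interval 1.12 to 1.56). Farther off, at 14.2 kb, a 4400-bp region was lower in K36M (ratio 0.717, interval 0.576 to 0.891). Chromosome 15, 27459801 to 27462600, had 77 and 145 reads (ratio 1.78, interval 1.34 to 2.38), and the 800-bp region 0.400 kb away had a ratio of 1.51 (interval 1.14 to 2.00). An 18000-bp region 40.8 kb away was lower in K36M (ratio 0.817, interval 0.706 to 0.944).

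Others of the 15 lay beside regions with lower K36M levels, though not always beyond counting error. Chromosome 15, 43267801 to 43274800, held 7.74 in WT and 14.1 RPM in K36M (from 231 and 444 reads, ratio 1.82, interval 1.55 to 2.14). A 3600-bp region only 3.60 kb away held 17.4 (WT) and 7.35 RPM (K36M), 2.37-fold lower (interval 2.03 to 2.78). The intervals of these neighbours do not overlap, so that opposite differences stood side by side at this locus in these libraries. At chromosome 13, 63217801 to 63221200, the level per kb was 1.33 RPM in WT and 2.58 in K36M (ratio 1.94, interval 1.57 to 2.40), and both adjoining regions were lower in K36M. Chromosome 8, 109730401 to 109736800, had 193 and 366 reads (ratio 1.79, interval 1.50 to 2.15). The dense 400-bp region that touches it had a ratio of 0.890, with an interval (0.693 to 1.14) that includes 1.

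The remaining regions of the 15 were chromosome 10, 95308801 to 95310600 (72 and 141 reads, ratio 1.85), chromosome 18, 34538201 to 34541200 (98 and 188 reads, ratio 1.82), and chromosome 4, 88705801 to 88708200 (112 and 211 reads, ratio 1.78). The first of them had its nearest neighbour 229 kb away and the next 324 kb away. In all, 4 of the 15 had no other region within 50 kb, and the other 11 had 28 among them. Of these 28, 17 were lower in K36M (60.7%, against 85.1% of all regions), 11 were higher, and 5 were themselves members (17.9%, against 5.87% of all regions).

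**Figure D2:**
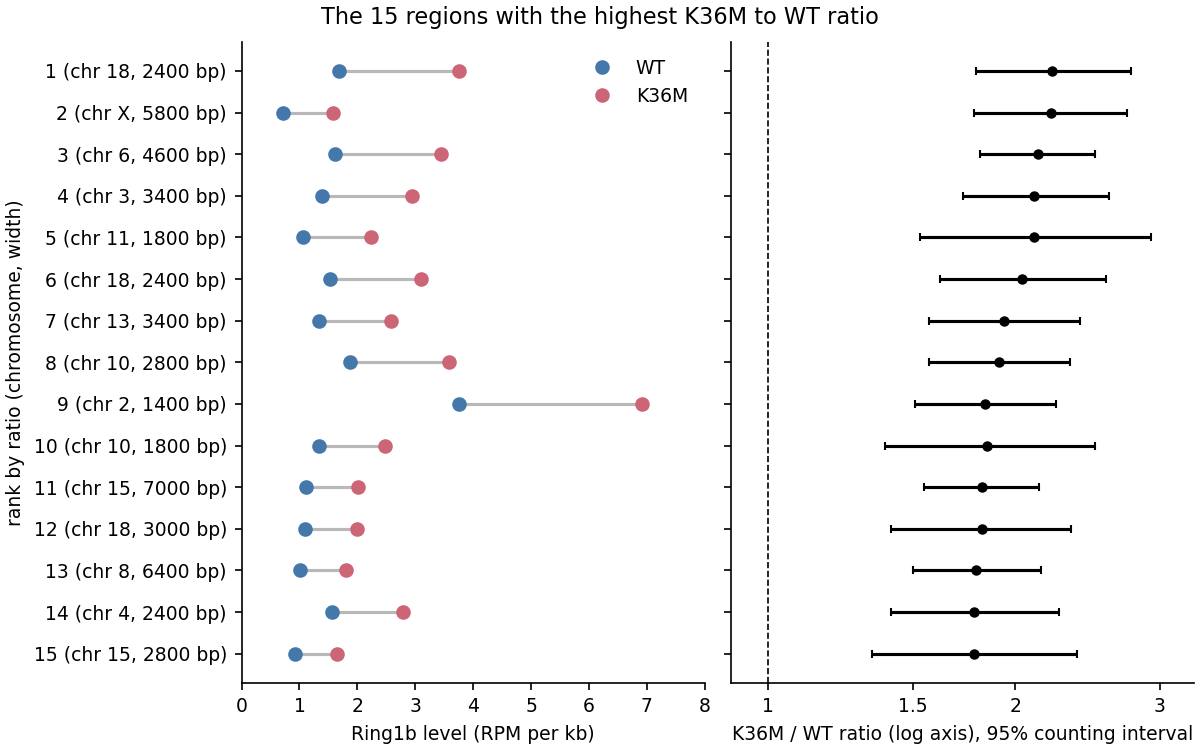
Left, Ring1b density (RPM per kb) in the WT (blue) and K36M (red) library for the 15 regions with the highest ratio, each named by its rank, chromosome and width. Right, the K36M to WT ratio on a log axis with its 95% counting interval. All 15 intervals lie above 1 (dashed), which the choice of the highest ratios favours, and the intervals overlap one another.

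The 15 regions with the highest ratio are 4.01% of the members. Of the 6 members with the highest mean density, the region on chromosome 2 described above was among the 15, and of the 6 with the highest summed value none was. The densest member was chromosome 8, 19756601 to 19757800, with 7.12 in WT and 7.24 RPM per kb in K36M (255 and 274 reads, ratio 1.02, interval 0.854 to 1.21). It is 1 of 2 members, with chromosome 8, 19985401 to 19987000 (ratio 0.961), that lie in runs of at least 10 closely spaced regions. Chromosome 13, 104827801 to 104829000, was equally level at 4.80 and 4.78 RPM per kb (ratio 0.996, interval 0.804 to 1.23). Chromosome 16, 92654001 to 92655400, held 4.47 and 4.96 RPM per kb, and chromosome 13, 96030401 to 96031600, held 4.05 and 4.99, both with intervals that include 1. Among these dense sites, chromosome 4, 8145001 to 8146200, stood higher in K36M, with 3.52 in WT and 5.26 RPM per kb in K36M (126 and 199 reads, ratio 1.49, interval 1.19 to 1.88).

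Of the 6 members with the highest summed value, 4 had an interval above 1 and 2 a ratio of at least 1.5. Chromosome 2, 108459801 to 108464200, had the highest WT value of all members, with 463 WT and 551 K36M reads (15.5 and 17.5 RPM), and its interval of 0.993 to 1.28 just includes 1. Chromosome 2, 126128001 to 126134800, had the highest K36M value, 18.6 RPM against 11.2 RPM in WT (ratio 1.67, interval 1.45 to 1.91). Chromosome 16, 33884401 to 33890800, held 10.8 in WT and 16.6 RPM in K36M (ratio 1.54, interval 1.34 to 1.77). At these deeply covered loci the intervals are narrow enough to separate a ratio of 1.5 from equality. Chromosome 11, 98962201 to 98967600, had a ratio of 1.33 (interval 1.15 to 1.53), and chromosome 6, 117444401 to 117452200, of 1.17 (interval 1.02 to 1.35). Chromosome 4, 88571001 to 88575800, held 11.4 and 12.1 RPM, an equal level within counting error (ratio 1.06, interval 0.916 to 1.23).

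Regions next to members, which the rule did not choose, also had ratios nearer to 1 than regions next to other mid-width regions. To use regions that the rule cannot choose, the nearest region of a width the rule cannot take (under 1200 or over 8000 bp) was sought within 50 kb of each mid-width region. Members had such a neighbour in 178 cases (155 distinct regions), with a median log2((K36M + 0.1)/(WT + 0.1)) of -0.31 (quartiles -0.69 and 0.16). The other mid-width regions had one in 1208 cases (905 distinct regions), with a median log2 ratio of -1.16 (quartiles -1.89 and -0.58). For mid-width regions at least 2-fold lower in K36M, it was -1.69 (528 cases).

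Of the 178 neighbours of members, 121 (68.0%) were lower in K36M, against 94.2% beside the other mid-width regions and 81.8% of all 3547 regions of those widths. A ratio of at least 0.95 was found at 65 (36.5%) of them, against 7.37% beside the others; the background was 21.5% of all regions of those widths and 14.6% without the dense runs of at least 10 regions. Levels of 0.5 times WT or less were seen at 31 of them (17.4%), against 57.5% beside the others and a background of 32.9%, or 38.6% without dense runs. Regions that do not touch the member had a median log2 ratio of -0.36 (140 cases), and beside other mid-width regions -0.98. These counts are over neighbouring regions of the same 2 libraries, which are not independent, and no test was made.

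**Figure D3:**
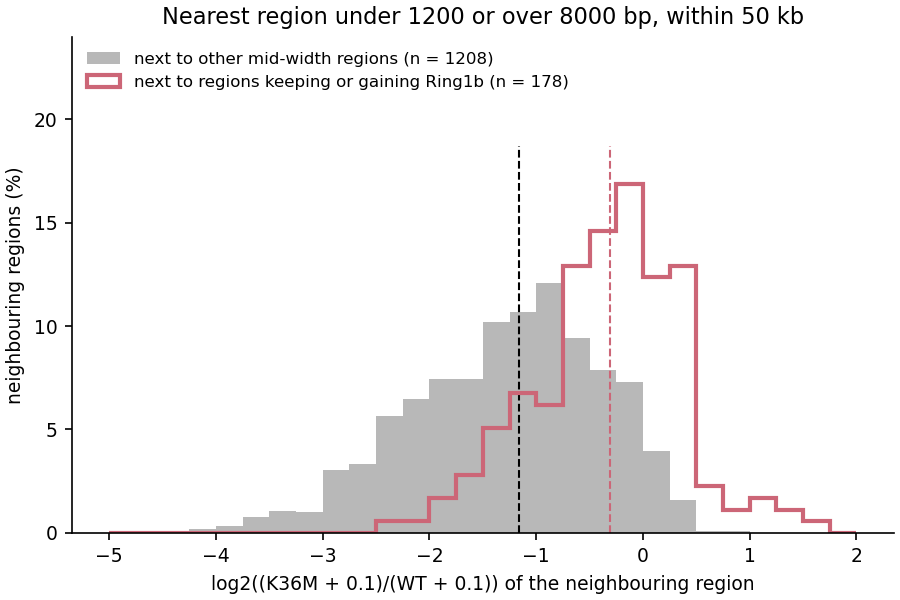
Share of neighbouring regions (y axis, %) by their log2 ratio of K36M to WT (x axis), for the nearest region under 1200 or over 8000 bp within 50 kb. Neighbours of the regions keeping or gaining Ring1b (red line, n = 178) centre on -0.31 and those of the other mid-width regions (grey, n = 1208) on -1.16; dashed lines mark the medians.

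The nearest region of any width was itself a member for 36 of the 237 members with a region within 50 kb (15.2%). For the other mid-width regions with such a neighbour, this share was 4.43%. Members are 5.87% of all regions and 13.2% of the mid-width regions. The 237 cases rest on 224 distinct regions, and members nearest to each other count in both directions. Isolation was similar in both sets: 26.7% of the members and 24.4% of the others had no region within 100 kb, and 17.4% and 20.3% touched another region. Of the 374 members, 268 had no other member within 100 kb and 106 did. The latter formed 35 pairs and 11 groups of at least 3, with 36 members in the groups, none of which spans more than 200 kb. How many such groups the spacing of the mid-width regions alone would give was not computed. Whether members cluster is therefore not read from these counts.

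Summed values of a group's members are given as a description, since the rule admitted each member by its ratio; the listed regions between them that are no members were not chosen by it. On chromosome 11, 86382001 to 86438400, all 5 regions in 56.4 kb were higher in K36M, and 4 of them are members. The 4 members there held 22.3 (WT) and 30.8 RPM (K36M) together (ratio 1.38). The outer ones, at 86382001 and 86435401, had the largest ratios, 1.53 (interval 1.25 to 1.90) and 1.68 (1.39 to 2.04), while those at 86402801 and 86421801 stood at 1.20 and 1.15 with intervals that include 1. The region between them, at 86412401, is 9000 bp wide and so no member, and it had a ratio of 1.29 (interval 1.12 to 1.49). On chromosome 4, 88681801 to 88708200, 3 members and no other region lay in 26.4 kb, with 12.2 in WT and 17.1 RPM in K36M (ratio 1.40). On chromosome 3, 121272401 to 121292800, 3 members without another region in between summed to a ratio of 1.22, from 1.50 at one end to 1.01 at the other. Of the regions in these 3 stretches, the one at chromosome 11, 86412401, was the only one not chosen by its ratio.

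The group on chromosome 13, 63185601 to 63289800, was mixed. Its 4 members held 22.6 in WT and 28.6 RPM in K36M (ratio 1.26), of which 1 member, at 63217801, had an interval above 1. The 4 other regions between them were all lower in K36M, with 27.3 (WT) and 17.0 RPM (K36M) together. Of these, the 800-bp region at 63195601 held 4.42 (WT) and 1.71 RPM (K36M), and the 14000-bp region at 63255801 held 8.48 and 5.33 RPM. On chromosome 10, 16732601 to 16897600, 3 members with a summed ratio of 1.26 likewise lay among 3 regions that were all lower in K36M. Members and regions with less Ring1b in K36M thus lay interleaved within these stretches.

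**Figure D4:**
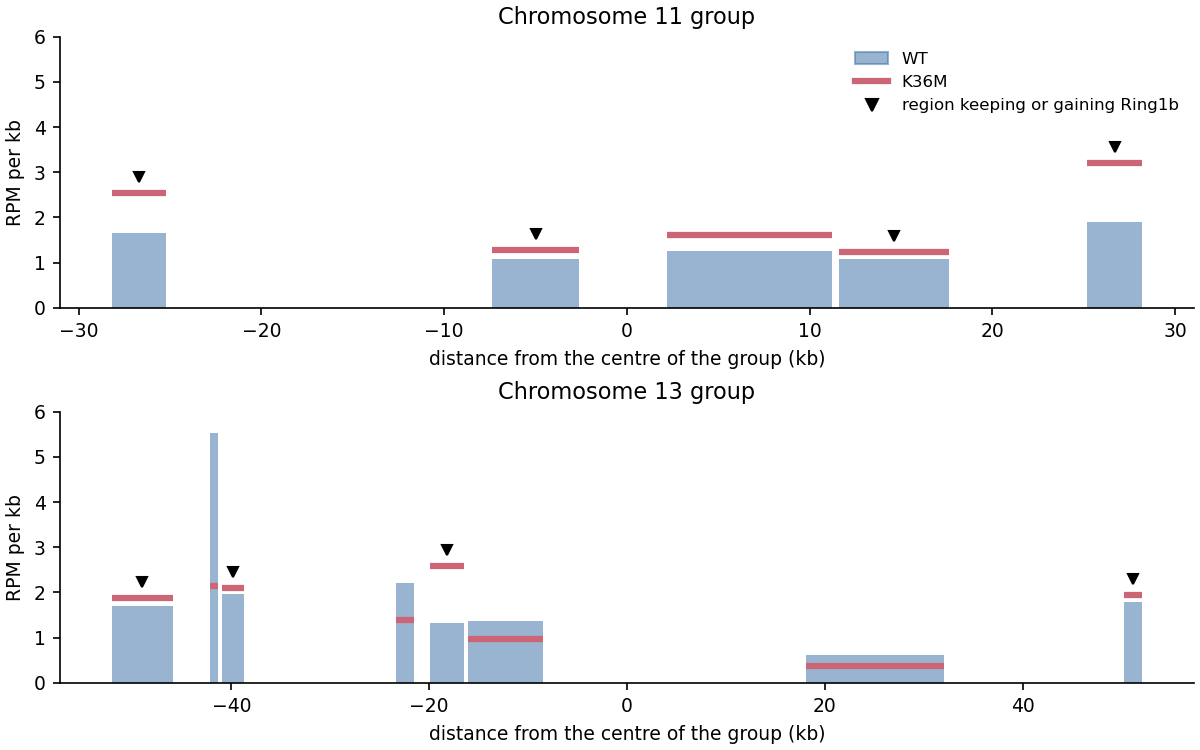
Ring1b density (RPM per kb) of every listed region in the groups on chromosome 11 and chromosome 13, against the distance from the centre of the group in kb; blue bars are WT, red lines K36M, and triangles mark members. All 5 regions of the chromosome 11 group are higher in K36M, 4 of them members chosen by their ratio, and on chromosome 13 the 4 members are interspersed with 4 regions that are lower in K36M.

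The other groups had summed ratios of 1.02 to 1.24. On chromosome 5, 5174401 to 5183200, 3 members lay around a 400-bp region of 10.9 (WT) and 9.99 RPM per kb (K36M), and summed to a ratio of 1.24. On chromosome 4, 89089801 to 89142400, the 3 members summed to a ratio of 1.23, no single one had an interval above 1, and a 400-bp region touching one of them, at 89136401, was 2.21 times as high in K36M (interval 1.66 to 2.98). On chromosome 5, 53886801 to 53932200, the summed ratio was 1.15. The lowest summed ratios were those on chromosome 18, 46981001 to 47097200 (ratio 1.05) and 55061401 to 55145000 (ratio 1.02), and on chromosome 19, 9056601 to 9182000 (ratio 1.07). Over all 11 groups, 18 listed regions that are no members lay between the members, 13 of them lower in K36M and 5 higher. Of all regions, 85.1% were lower in K36M.

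At 13 members a region at least 2-fold lower in K36M lay within 2000 bp, out of 121 members with any region that close. Such a level was seen at 33.5% of all regions, a share counted over single regions and not over members. In all 13 the neighbour's interval lay below 1, which the choice of neighbours by a low ratio favours. At chromosome 5, 65258001 to 65260600, the member held 4.36 RPM in WT and 4.53 in K36M, and the 400-bp region 1600 bp away held 4.96 and 1.17 RPM, 4.23-fold lower (interval 2.93 to 6.24). At chromosome 18, 52720601 to 52725000, the member had a ratio of 1.38 (interval 1.14 to 1.67), and the 400-bp region 2000 bp away was 2.41-fold lower (interval 1.85 to 3.17). At chromosome 10, 3223401 to 3229600, the member had a ratio of 1.19 (interval 1.02 to 1.39), and the 3400-bp region 400 bp away was 2.31-fold lower (interval 1.81 to 2.98). In 12 of the 13 pairs the neighbour was denser in WT than the member, for example 15.5 against 1.44 RPM per kb at the chromosome 18 pair and 2.05 against 1.61 at the chromosome 10 pair. The choice of the pairs by ratio favours high WT values in the neighbour and low ones in the member. Of the 13 neighbours, 5 were 400 bp or less, and the part of width was not tested. Nothing is read from this count.

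Chromosomes differed in how many of their mid-width regions kept or gained Ring1b. The share was lowest on chromosome 14, with 5 of 116 (4.31%), then on chromosome 1, with 16 of 236 (6.78%), and on chromosome 7, with 7 of 85 (8.24%). It was highest on the X chromosome, with 11 of 35 (31.4%), on chromosome 18, with 30 of 109 (27.5%), and on chromosome 5, with 23 of 99 (23.2%). The largest number was on chromosome 13, 37 of 207 (17.9%). Across the 20 chromosomes, this share went with the median log2 ratio of regions of other widths outside dense runs (Pearson's r 0.49, Spearman's rho 0.42), which is a description over chromosomes that share both libraries and rest on 39 to 231 such regions each. That median was -1.11 on chromosome 14 and -0.36 on chromosome 5, but -0.77 on chromosome 18, near the -0.75 of all such regions. Chromosome 18 thus ranked high by mid-width members and not by its regions of other widths.

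**Figure D5:**
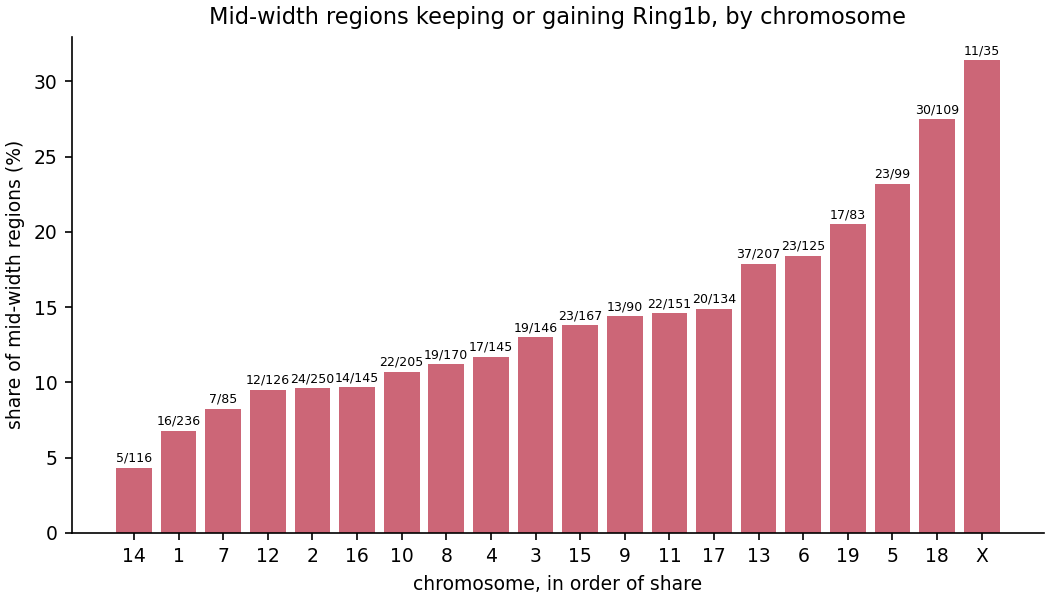
Share of mid-width regions that kept or gained Ring1b (y axis, %) on each chromosome (x axis, in order of the share), with the number of members and of mid-width regions above each bar. The share goes from 4.31% on chromosome 14 to 31.4% on the X chromosome, where it rests on 11 of 35 regions.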

How the data were processed

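The aligner Bowtie 1.0.0 and mouse build mm9 are named in the submitters' processing notes. No source used here names the peak caller, its threshold, how duplicates were treated or how reads were counted. The deposited values are headed RPKM by the authors but behave as RPM: all are whole multiples of 1 step per library (tolerance 0.01 reads) whatever the region's width. They were divided by the step for reads and by the width for density. Ratios have exact conditional intervals (scipy 1.17.1). They were tried on simulated reads that varied by counting error alone, so that this check does not bear on duplicates or on variation between cultures. Log2 ratios use a pseudocount of 0.1 RPM, which understates the change of low regions. Regions named are, by rule, the 15 members with the highest ratio, 6 with the highest density, 6 with the highest sum, 3 on each side of the ratio threshold, and groups of at least 3 members with gaps up to 100 kb within 200 kb. Neighbours of other widths, pairs within 2000 bp and chromosome shares were added after the data were seen. Members and lists were chosen with earlier results of these data known. The 14 gene lists were not used.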

Additional observations from a re-analysis of the deposited data

How the results depend on the processing

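No paired analysis was possible because each form of H3.3 has 1 library, and leaving out a replicate was not possible either. The number of members stayed between 284 (width up to 6000 bp) and 476 (ratio of at least 0.9), within 1.5 times 374, under all 9 alternatives. The 92 intervals above 1 became 71 at 99% confidence. Relative to the median region, which had a log2 ratio of -0.65, all 374 intervals lay above 1 and 0 included it, and the median log2 ratio of members, 0.14, became 0.80; the rule fixes much of this. Not divided by width, the median values were 4.82 RPM (WT) and 5.53 RPM (K36M) for members and 5.43 and 2.92 RPM for the other mid-width regions. Beside other mid-width regions, the nearest region that is no member stood at a median log2 ratio of -1.02, at -1.10 within 10 kb and at -0.88 when not touching; beside members the values were -0.32, -0.28 and -0.36. For neighbours of other widths, beside other mid-width regions, -1.16 became -1.26 within 10 kb and -0.98 when not touching; beside members -0.31 became -0.16 and -0.36. The cause of these shifts was not tested. Leaving out dense runs moved the number of members to 372 and the intervals including 1 from 282 to 280. Depth limits the calls: the interval of a typical member cannot separate a ratio of 1.11 from 1.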

Other observations

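The same ratio and minimum sum were also met outside the width class. Among regions over 8000 bp, 178 of 1214 (14.7%) met them, close to the 13.3% of the mid-width class, but only 2 of the 178 reached a ratio of 1.5 and the highest log2 ratio was 0.81, against 30 of 374 and 1.13. Among regions under 1200 bp outside dense runs, 199 of 910 (21.9%) met them, 31 reached a ratio of 1.5 and the highest log2 ratio was 1.81. Median WT densities of these sets were 0.680 RPM per kb (over 8000 bp), 1.10 (mid-width) and 6.62 (under 1200 bp). The sets differ in reads per region and in width, whose part in these counts was not tested.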
